A study of Homo sapiens with 12 samples.

Results

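HLF and SNU475 are established human hepatocellular carcinoma lines, and the results concern the genes whose RNA level differed the same way in both after lactate was added. The 8 libraries of these lines were taken out of 12 in the series, and the other 4 come from PLC/PRF/5, another line of the same cancer. In each line 2 libraries are untreated controls and 2 come from cells kept for 24 h in 20 mM lactate, which was added as lactic acid. No genetic change or other agent is named for any group. The labels give no pH of the medium, nor whether replicate libraries stem from different dishes. P-values therefore reflect variation among the sequenced libraries alone, and some of it could be technical. RNA was total RNA from whole cultures, so a change in the mix of cells and a change in RNA per cell cannot be told apart. Of the 62710 genes in the tables, 17191 had enough counts to be tested in the 8 libraries.

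Lactate is the end product of glycolysis and leaves or enters cells with a proton through monocarboxylate transporters. Inside the cell, lactate dehydrogenase turns it back into pyruvate, and lactyl groups can be attached to lysines of histones and other proteins. TXNIP and ARRDC4 are arrestin-like proteins that lower glucose uptake, and their genes are standard targets of MondoA, a transcription factor that responds to glucose 6-phosphate. In liver tumours, loss of epithelial and hepatocyte genes and gain of mesenchymal genes marks poorly differentiated cells.

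The mesenchymal label was checked on untreated cells, as the mean of HLF and SNU475 against PLC/PRF/5, so a call need not hold in each line. Of 16 mesenchymal markers, 12 were higher in that mean and 1, FN1, was lower, with a median log2 difference of 3.01 (edgeR, adjusted p under 0.05). By the same test 45.9% of all genes differed between these untreated lines. In TPM (a length-scaled transcript level) the intermediate filament gene VIM averaged 4266 in the HLF controls, 3401 in those of SNU475 and 404 in those of PLC/PRF/5. The lines differed in other markers: FN1 was at 148 TPM in HLF but 1006 in SNU475 and 1019 in PLC/PRF/5, and SNAI2 and the smooth muscle actin gene ACTA2 were at 0.180 and 3.25 TPM in HLF but 29.9 and 640 TPM in SNU475. Of 15 epithelial markers tested, 7 were lower in the mean of the 2 lines and 1, CLDN4, was higher, at 30.2 TPM in SNU475 but 0.560 TPM in HLF against 1.21 TPM in PLC/PRF/5. The keratin genes KRT8 and KRT18 stayed at 1179 to 4779 TPM in the controls of both lines and did not pass (edgeR adjusted p = 0.151 and 0.343). All 21 hepatocyte markers were lower, and their summed level was 12.4 to 27.4 TPM in the 8 libraries against 4549 to 6994 TPM in untreated PLC/PRF/5. The apolipoprotein genes APOA1, APOA2 and APOB and the transthyretin gene TTR were at 0 in all 8. RNA of a few others was low but present, such as the fibrinogen gene FGB at 5.31 and 11.9 TPM in the HLF controls and AFP at 5.02 and 3.32 TPM in the SNU475 controls. Markers of blood, vessel, stellate and duct cells summed to 175 to 694 TPM in the 8 libraries, against 331 and 532 TPM in the PLC/PRF/5 controls. The largest were SPP1, at 82.5 to 492 TPM in the 8, and CD68, at 35.6 to 161 TPM, and CD14 and KRT7 reached 29.5 and 31.1 TPM. PTPRC, CD3E, NKG7, PECAM1, VWF, CDH5, LYVE1 and LRAT were each at no more than 0.550 TPM. Of the 20, 1, the B cell gene MS4A1, was at 0 in all 8.

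Totals ran from 17200000 to 21780000 counts per library. The first principal component, with 81.6% of the variance, separated the lines. The second, with 7.06%, separated the SNU475 libraries by replicate number, at -54.8 and -47.7 for number 1 against 14.2 (control) and 85.2 (lactate) for number 2. The third, with 4.29%, was between -64.2 and -3.73 in the 4 controls and between 9.72 and 36.4 in the 4 lactate libraries. Mitochondrially encoded RNA made up 9.52% and 3.39% of the counts in the HLF controls, 5.49% and 3.93% with lactate, 8% and 15.05% in the SNU475 controls and 8.5% and 13.88% with lactate. The SNU475 lactate library numbered 2 held the highest level of many of the genes below. Ranges given with 1 library left out cover the 8 fits that each lack 1 of the 8 libraries.

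No gene passed an adjusted p of 0.05 for the shared lactate effect in the edgeR quasi-likelihood test with line as a block (called share 0%, smallest adjusted p = 0.312). At an unadjusted p under 0.05 there were 1852 genes, of which 1073 (6.24% of those tested) were higher and 779 (4.53%) lower with lactate. DESeq2, an alternative tool, called 194 genes (1.37% of the 14191 it adjusted), 114 higher and 80 lower, and limma-voom called 0. Because the main test made no call, genes are described below by their values and not as changed. In 1127 genes (6.56%) both lactate libraries lay above both controls in HLF and again in SNU475, and in 1048 genes (6.10%) both lay below. These genes are called separated. The log2 fold change was over 1 in both lines for 120 of the higher genes and under -1 in both for 51 of the lower ones. Separation in opposite directions occurred in 268 genes that were higher in HLF and lower in SNU475 (1.56%), and in 157 genes with the reverse order (0.913%). Over all genes tested the fold changes of the 2 lines had the same sign in 61.5%, with a Pearson correlation across genes of 0.15 and a Spearman correlation of 0.32. Genes are not independent replicates, so these correlations are descriptions. The median log2 change over all genes was 0.030, and 53.2% had a positive shared change. The change was positive in both lines in 32.9% and negative in both in 28.6%. In the lists below, higher and lower give the sign of the shared change, so a member's sign may differ between the lines. Counts of separated members there stand beside 6.56% upward and 6.10% downward over all genes.

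**Figure D1:**
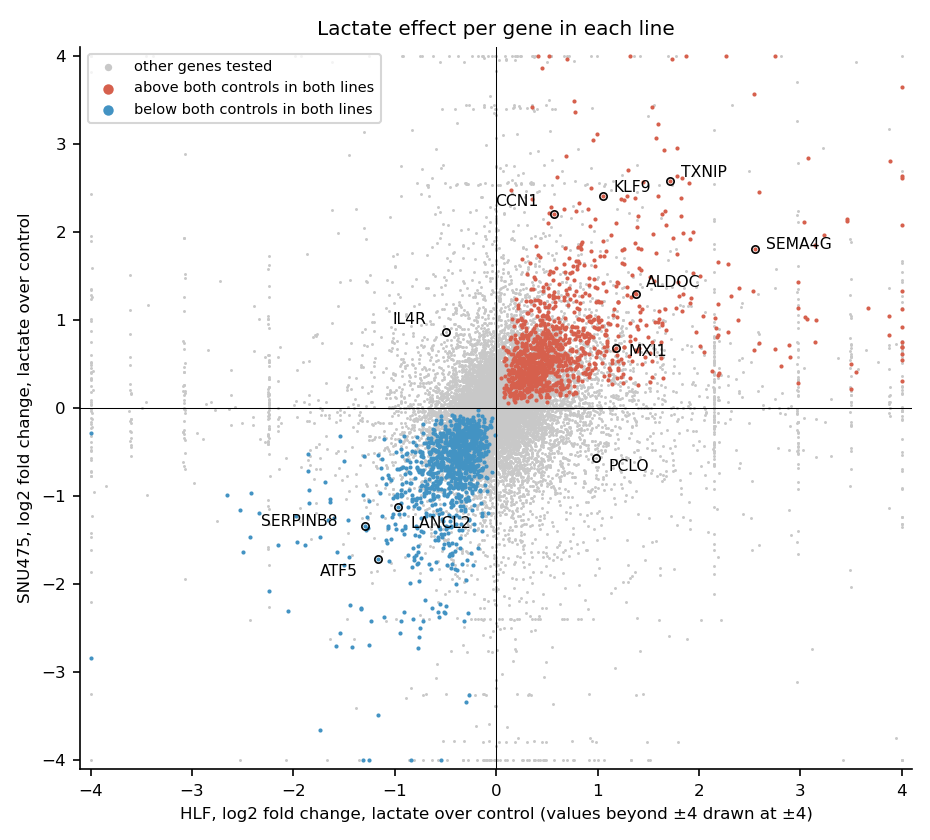
Log2 fold change with lactate in HLF (x axis) against SNU475 (y axis) for the 17191 genes tested. Values beyond ±4 in either line are drawn at ±4. Genes separated upward in both lines are red, those separated downward blue and all others grey. Circles mark TXNIP, KLF9, CCN1, SEMA4G, ALDOC, MXI1, ATF5, SERPINB8, LANCL2, IL4R and PCLO. Of the circled genes, IL4R and PCLO went opposite ways in the lines. Over all genes, 61.5% lie in the 2 quadrants where the signs are the same.

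TXNIP, which lies on chromosome 1, had the smallest p among the higher genes taken by the naming rule. Its level was 17.0 and 14.1 CPM (counts scaled to library size) in the HLF controls and 65.8 and 36.3 CPM with lactate, and 101 and 86.1 CPM in the SNU475 controls and 311 and 801 CPM with lactate. Lactate libraries were thus 3.29-fold higher in HLF and 5.96-fold higher in SNU475 on their means, with no overlap within a line. The shared log2 change was 2.15 ± 0.33 (SE) with an adjusted p of 0.312 in edgeR and 1.06e-06 in DESeq2. It was called by edgeR when the SNU475 lactate library numbered 2, which held the highest level, was left out (adjusted p = 0.0495). ARRDC4, a relative of TXNIP, was at 1.16 and 3.17 CPM in the HLF controls and 5.52 and 4.39 CPM with lactate. In SNU475 it was at 4.60 and 10.7 CPM against 15.5 and 25.2 CPM, and the shared log2 change was 1.31 ± 0.37 (edgeR adjusted p = 0.345). Of the 12 MondoA and ChREBP targets tested, 9 were higher and 3 lower, 3 were separated upward (TXNIP, ARRDC4 and MLXIPL) and 0 downward, with a median of 0.24. MLXIPL, which encodes ChREBP, was at 0 counts in both HLF controls and at most 0.814 CPM in any library. The list median ran from 0.17 without the HLF control numbered 1 to 0.46 without the SNU475 control numbered 1. In PLC/PRF/5 the median of this list was 0.044.

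The 250 bases before the start sites of 6 genes of the glucose and oxygen programmes are shown, as a selection from those separated upward. Sequences and coordinates are those of RefSeq on GRCh38.p14, each read 5′ to 3′ on the gene's own strand, and capitals mark every ACGTG, the core of the hypoxia response element, on either strand. Where ACGTG is part of the palindromic E-box CACGTG, the whole E-box is in capitals.
TXNIP (chr1:145996580-145996829, minus strand): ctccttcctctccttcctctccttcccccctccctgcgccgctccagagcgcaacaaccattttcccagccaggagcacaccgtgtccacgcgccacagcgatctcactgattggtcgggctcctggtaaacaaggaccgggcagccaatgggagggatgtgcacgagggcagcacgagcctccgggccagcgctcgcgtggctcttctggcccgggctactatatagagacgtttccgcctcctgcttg
ARRDC4 (chr15:97960453-97960702, plus strand): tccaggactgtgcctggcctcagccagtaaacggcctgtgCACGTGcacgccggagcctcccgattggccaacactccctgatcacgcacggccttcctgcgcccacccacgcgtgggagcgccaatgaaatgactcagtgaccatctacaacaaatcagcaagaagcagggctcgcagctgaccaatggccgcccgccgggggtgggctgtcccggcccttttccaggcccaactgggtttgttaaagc
ALDOC (chr17:28576896-28577145, minus strand): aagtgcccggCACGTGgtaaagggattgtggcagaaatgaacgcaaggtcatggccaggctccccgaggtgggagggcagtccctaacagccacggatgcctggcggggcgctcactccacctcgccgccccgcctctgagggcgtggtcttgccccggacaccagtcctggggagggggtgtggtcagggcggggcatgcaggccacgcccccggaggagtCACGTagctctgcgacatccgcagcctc
HK2 (chr2:74833877-74834126, plus strand): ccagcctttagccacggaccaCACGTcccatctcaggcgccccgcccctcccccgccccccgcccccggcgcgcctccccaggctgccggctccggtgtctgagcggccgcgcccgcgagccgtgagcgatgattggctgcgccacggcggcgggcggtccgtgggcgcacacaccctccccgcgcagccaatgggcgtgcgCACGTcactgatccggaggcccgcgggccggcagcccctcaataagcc
P4HA1 (chr10:73096867-73097116, minus strand): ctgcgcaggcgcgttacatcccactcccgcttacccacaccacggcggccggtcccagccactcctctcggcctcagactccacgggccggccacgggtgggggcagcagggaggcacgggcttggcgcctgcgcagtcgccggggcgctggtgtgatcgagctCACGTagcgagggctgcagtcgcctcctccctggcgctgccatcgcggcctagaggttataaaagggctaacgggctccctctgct
DDIT4 (chr10:72273674-72273923, plus strand): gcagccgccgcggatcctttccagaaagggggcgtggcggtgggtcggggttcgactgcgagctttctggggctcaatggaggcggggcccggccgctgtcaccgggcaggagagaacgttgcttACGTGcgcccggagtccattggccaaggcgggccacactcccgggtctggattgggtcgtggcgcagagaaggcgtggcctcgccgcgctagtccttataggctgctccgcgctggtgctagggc
The TXNIP window holds no ACGTG, and the ARRDC4 window holds 1 CACGTG that starts 210 bases before the start site (position -210). Other separated genes of these programmes are not shown, such as MXI1 with 0 ACGTG and PLOD2 with 2. Among the 11347 protein-coding genes tested that have such a window (80.1% of 14168), 22.9% hold ACGTG and 8.75% hold CACGTG, which contains it. The separated higher genes held ACGTG in 23% of 845 windows and the separated lower genes in 24.7% of 741, both near the share of all genes. For CACGTG the shares were 8.28% and 8.5%. TGATG, the start of the amino acid response element, was in 15.5% of the higher, 17% of the lower and 18.5% of all windows. The hypoxia targets held ACGTG in 13 of 20 windows (65%), the MondoA and ChREBP targets in 5 of 10 and the glycolysis genes in 8 of 20. Only these exact motifs were searched, so a window without them, such as that of TXNIP, may still hold other forms of an E-box. A match describes letters and not a bound site.

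The other leading higher genes belong to no single list. KREMEN1, a Dickkopf receptor that dampens Wnt signalling, was at 17.8 and 16.2 CPM in the HLF controls and 42.3 and 31.8 CPM with lactate, and at 26.1 and 24.0 CPM in the SNU475 controls and 43.2 and 53.7 CPM with lactate. Its log2 change of 1.04 ± 0.17 was nearly equal in the lines (1.12 in HLF and 0.95 in SNU475, edgeR adjusted p = 0.312), and all 4 lactate libraries lay above all 4 controls. TBC1D8B, a protein with a Rab GTPase-activating domain, was at 5.68 and 6.72 against 14 and 13.5 CPM in HLF and at 17.8 and 13.6 against 30.2 and 35.2 CPM in SNU475 (1.10 ± 0.18). IVNS1ABP, an actin-associated kelch protein, was at 52.9 and 56.0 against 107 and 85.7 CPM in HLF and at 146 and 163 against 222 and 323 CPM in SNU475, a log2 change of 0.82 in each line. ZC3H6, which encodes a zinc finger protein, was at 2.5 and 3.36 against 13.8 and 8.29 CPM in HLF and at 5.30 and 3.46 against 10.5 and 9.46 CPM in SNU475 (1.55 ± 0.30). SLC29A4, an organic cation and adenosine transporter, was at 12.1 and 8.52 against 34.9 and 27.9 CPM in HLF and at 15.9 and 11.3 against 39.7 and 18.8 CPM in SNU475 (1.36 ± 0.27). In the last 2 genes, too, no control library reached any lactate library.

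HSPA2, an HSP70-family chaperone, was at 30.7 and 28.4 against 53.1 and 49.5 CPM in HLF and at 38.1 and 55.9 against 98.4 and 182 CPM in SNU475 (1.19 ± 0.24). CLIP2, a microtubule-binding linker protein, had a smaller but even difference, from 27.1 and 26.3 to 52.7 and 42.7 CPM in HLF and from 45.4 and 46.3 to 65.7 and 73.2 CPM in SNU475 (0.72 ± 0.15). ASMTL lies in the pseudoautosomal region, so both copies were counted together, and its log2 change was 0.97 ± 0.20. C1QL4, a secreted C1q-domain protein, had a log2 difference of 1.22 ± 0.24 and PCMTD1 one of 1.0 ± 0.21. The kinase gene LMTK3 (2.07 ± 0.41), the semaphorin gene SEMA4G (2.18 ± 0.44) and NSUN7 (1.83 ± 0.37), of a family of RNA cytosine methyltransferases, had larger folds at levels of at most 10.1 CPM. For these 15 higher genes the edgeR adjusted p was 0.312 to 0.345, and DESeq2 called all 15. They were taken by smallest p on the same counts, so the DESeq2 calls are no independent support. In PLC/PRF/5 the fitted change was positive in 14 of the 15, the exception being NSUN7 at 0.0, and 13 were separated upward there.

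**Figure D2:**
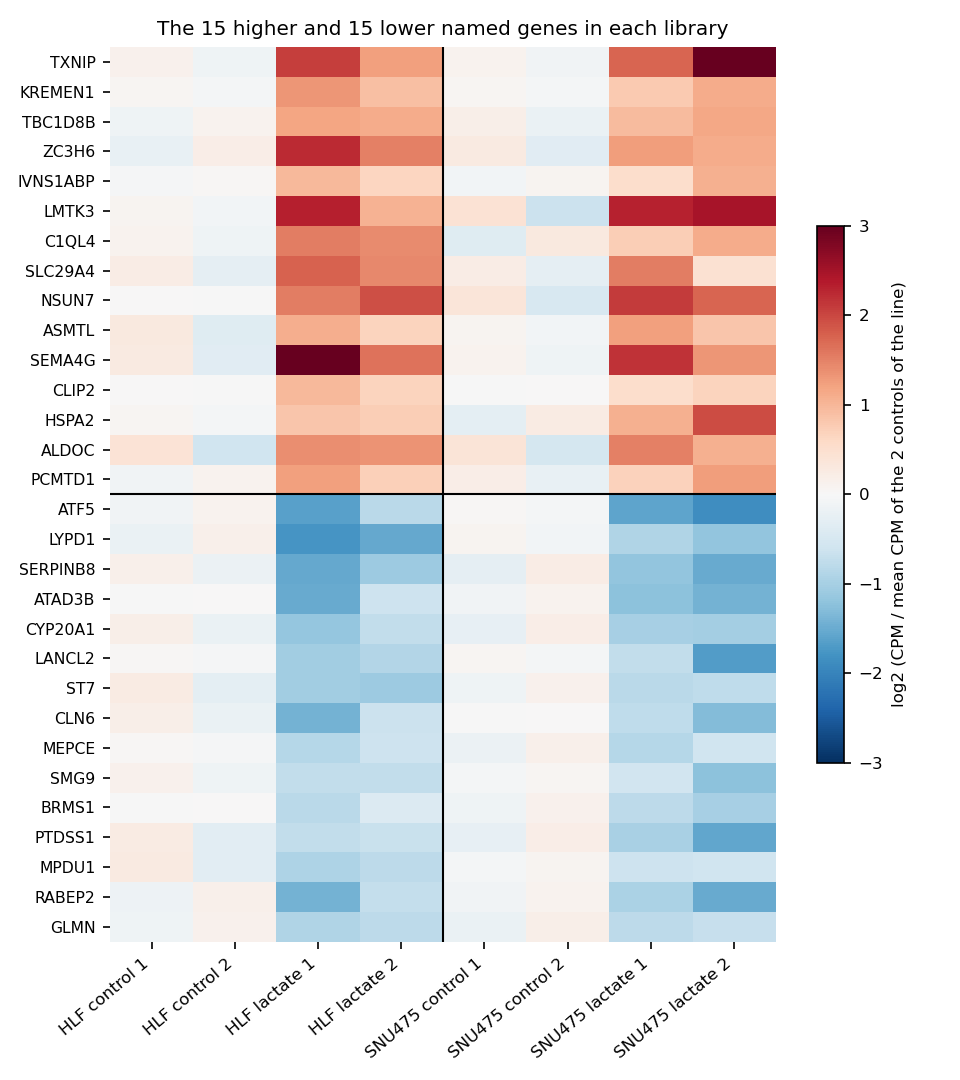
Log2 level of the first 15 higher and first 15 lower genes in each of the 8 libraries, relative to the mean of the 2 controls of the line, so that 0 is that mean. Every gene has both lactate libraries on one side of both controls in each line, which the naming rule required.

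ATF5, a bZIP transcription factor of the integrated and mitochondrial stress responses, had the smallest p among the lower genes taken by that rule. Its level was 34.5 and 39.9 CPM in the HLF controls and 12.1 and 21.1 CPM with lactate, and 59.8 and 56.1 CPM in the SNU475 controls and 19.3 and 15.9 CPM with lactate. Lactate libraries were 2.24-fold lower in HLF and 3.29-fold lower in SNU475, and no lactate library reached any control. The shared log2 change was -1.44 ± 0.22 (edgeR adjusted p = 0.312, DESeq2 adjusted p = 4.25e-06). In PLC/PRF/5 it was -0.28, and the difference of the 2 lines from PLC/PRF/5 was -1.18 ± 0.30, which did not pass (edgeR adjusted p = 1.0).

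SERPINB8, an intracellular serine protease inhibitor, was at 18.2 and 14.5 against 5.61 and 7.72 CPM in HLF and at 15.1 and 21.3 against 8.03 and 6.39 CPM in SNU475 (-1.32 ± 0.22). ATAD3B, an ATPase of the inner mitochondrial membrane, was at 62.1 and 63.6 against 22.2 and 40.6 CPM in HLF and at 60.9 and 69.6 against 27.9 and 24.4 CPM in SNU475 (-1.16 ± 0.20). ATAD3B has a near-identical neighbour, ATAD3A, so reads may have been split between them. LYPD1, a GPI-anchored Ly6-family protein, had very different base levels, at 1.80 and 2.29 against 0.604 and 0.702 CPM in HLF and at 85.4 and 75.9 against 43.0 and 35.5 CPM in SNU475 (-1.26 ± 0.20). LANCL2, a protein of the lanthionine synthetase-like family, was at 26.8 and 25.4 against 12.6 and 14.1 CPM in HLF and at 37.0 and 34.2 against 21.3 and 11.2 CPM in SNU475 (-1.05 ± 0.21). In the other 3 genes all 4 lactate libraries lay below all 4 controls, and the LYPD1 change was -1.64 in HLF and -1.04 in SNU475.

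PTDSS1, a phosphatidylserine synthase, was at 177 and 120 against 90.0 and 94.1 CPM in HLF and at 138 and 189 against 84.2 and 56.0 CPM in SNU475 (-0.96 ± 0.21). CLN6, an endoplasmic reticulum protein needed for lysosomal enzymes, was at 55.8 and 43.4 against 18.7 and 31.5 CPM in HLF and at 56.6 and 58.3 against 33.7 and 23.2 CPM in SNU475 (-1.0 ± 0.20). MEPCE, the capping enzyme of 7SK RNA, was at 57.0 and 54.7 against 30.9 and 36.2 CPM in HLF and at 59.2 and 74.7 against 37.1 and 44.0 CPM in SNU475 (-0.73 ± 0.15). In each of these genes the lactate libraries lay below all 4 controls. CYP20A1 (-0.97 ± 0.19), ST7 (-0.92 ± 0.19), the Rabaptin gene RABEP2 (-1.11 ± 0.24) and GLMN (-0.79 ± 0.18) were lower too. So were SMG9 of nonsense-mediated decay (-0.80 ± 0.17), the metastasis suppressor BRMS1 (-0.74 ± 0.16) and MPDU1 of dolichol sugar use (-0.73 ± 0.16). DESeq2 called all 15 lower genes, again after a choice by smallest p on the same counts. All 15 were negative and separated downward in PLC/PRF/5.

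Glycolysis genes differed by enzyme. Of 21 tested, 17 were higher and 4 lower, but only HK2, ALDOC and ENO2 were separated, and the median was 0.16. HK2, the hexokinase bound to mitochondria, was at 55.5 and 67.4 against 112 and 94.1 CPM in HLF and at 49.1 and 38.7 against 64.9 and 72.7 CPM in SNU475 (0.70 ± 0.15, edgeR adjusted p = 0.345). ALDOC, the brain-type aldolase, was at 1.76 and 0.877 against 3.49 and 3.38 CPM in HLF and at 20.1 and 10.7 against 43.6 and 32.2 CPM in SNU475 (1.33 ± 0.28). ENO2, the neuronal enolase, was at 104 and 75.1 against 147 and 118 CPM in HLF and at 27.6 and 16.4 against 67.0 and 29.5 CPM in SNU475 (0.84 ± 0.28, or 0.51 without the SNU475 lactate library numbered 1). PGK1 was at 0.39 ± 0.17, and PFKFB4, which sets fructose 2,6-bisphosphate, at 0.75 ± 0.33. PFKFB3 and the glucose transporter gene SLC2A1 were each at 0.28 on the log2 scale (SE 0.17 and 0.19). PFKFB3 was at 0.15 without the SNU475 control numbered 2, and SLC2A1 at 0.14 and 0.48 without the HLF controls numbered 2 and 1. The other forms differed less: ENO1 was at -0.094 ± 0.17, the pyruvate kinase gene PKM at -0.041 ± 0.17 and LDHA at 0.091 ± 0.16. With 1 library left out these ran from -0.17 to -0.03, from -0.12 to 0.036 and from 0.0019 to 0.16. LDHA was at 3118 and 2321 against 2960 and 3056 CPM in HLF and at 1483 and 1579 against 1457 and 1683 CPM in SNU475, so its groups overlapped in both lines.

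Among 23 genes that move or use lactate and pyruvate, 19 were higher and 4 lower by the shared change. In both lines only 9 were higher and 2 lower, and 12 did not share a sign. There were 2 separated upward, beside 6.56% of all genes. The median was 0.11 (up to 0.19, without the SNU475 lactate library numbered 1). SLC16A3, the monocarboxylate transporter MCT4 that exports lactate, was at 237 and 167 against 248 and 278 CPM in HLF and at 104 and 96.8 against 207 and 158 CPM in SNU475 (0.62 ± 0.18, edgeR adjusted p = 0.345). SLC16A1, which encodes MCT1, was at 0.14 ± 0.21, with -0.18 in HLF and 0.47 in SNU475, and it was -0.11 without the SNU475 lactate library numbered 2. The pyruvate dehydrogenase kinases turn off the entry of pyruvate into the citric acid cycle. PDK1 was at 13.5 and 14.2 against 31.4 and 26.3 CPM in HLF, and at 28.9 and 17.5 against 48.1 and 16.2 CPM in SNU475, where the groups overlapped (0.77 ± 0.32, or 0.48 without the SNU475 lactate library numbered 1). PDK3 was at 7.07 and 4.63 against 13.8 and 11.4 CPM in HLF and at 25.2 and 23.9 against 36.2 and 22.5 CPM in SNU475, where the groups overlapped too (0.67 ± 0.26). PDK4 was at most 0.0974 CPM in the HLF controls, and at 4.17 and 3.30 against 6.69 and 9.78 CPM in SNU475. PCK2, the mitochondrial enzyme that makes phosphoenolpyruvate, was at 0.57 ± 0.20, and LDHB at -0.24 ± 0.27 (0.072 without the SNU475 control numbered 1).

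Of 18 enzymes with proposed roles in making or removing lactyl marks, 8 were higher and 10 lower, with a median of -0.019. There were 2 separated upward and 1 downward, beside 6.56% and 6.10% of all genes. The median was -0.11 without the SNU475 lactate library numbered 1 and 0.045, with 12 higher and 6 lower, without that numbered 2. EP300, an acetyltransferase also reported to lactylate histones, was at 42.0 and 67.6 against 59.8 and 57.7 CPM in HLF and at 47.8 and 30.3 against 54.8 and 25 CPM in SNU475 (0.066 ± 0.26, and -0.18 to 0.25 with 1 library left out). Its groups overlapped in both lines. KAT2A, the acetyltransferase GCN5, was separated downward, at 41.7 and 49.0 against 30.7 and 38.2 CPM in HLF and at 29.9 and 38.2 against 18 and 15.7 CPM in SNU475 (-0.70 ± 0.19, edgeR adjusted p = 0.345).

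**Figure D3:**
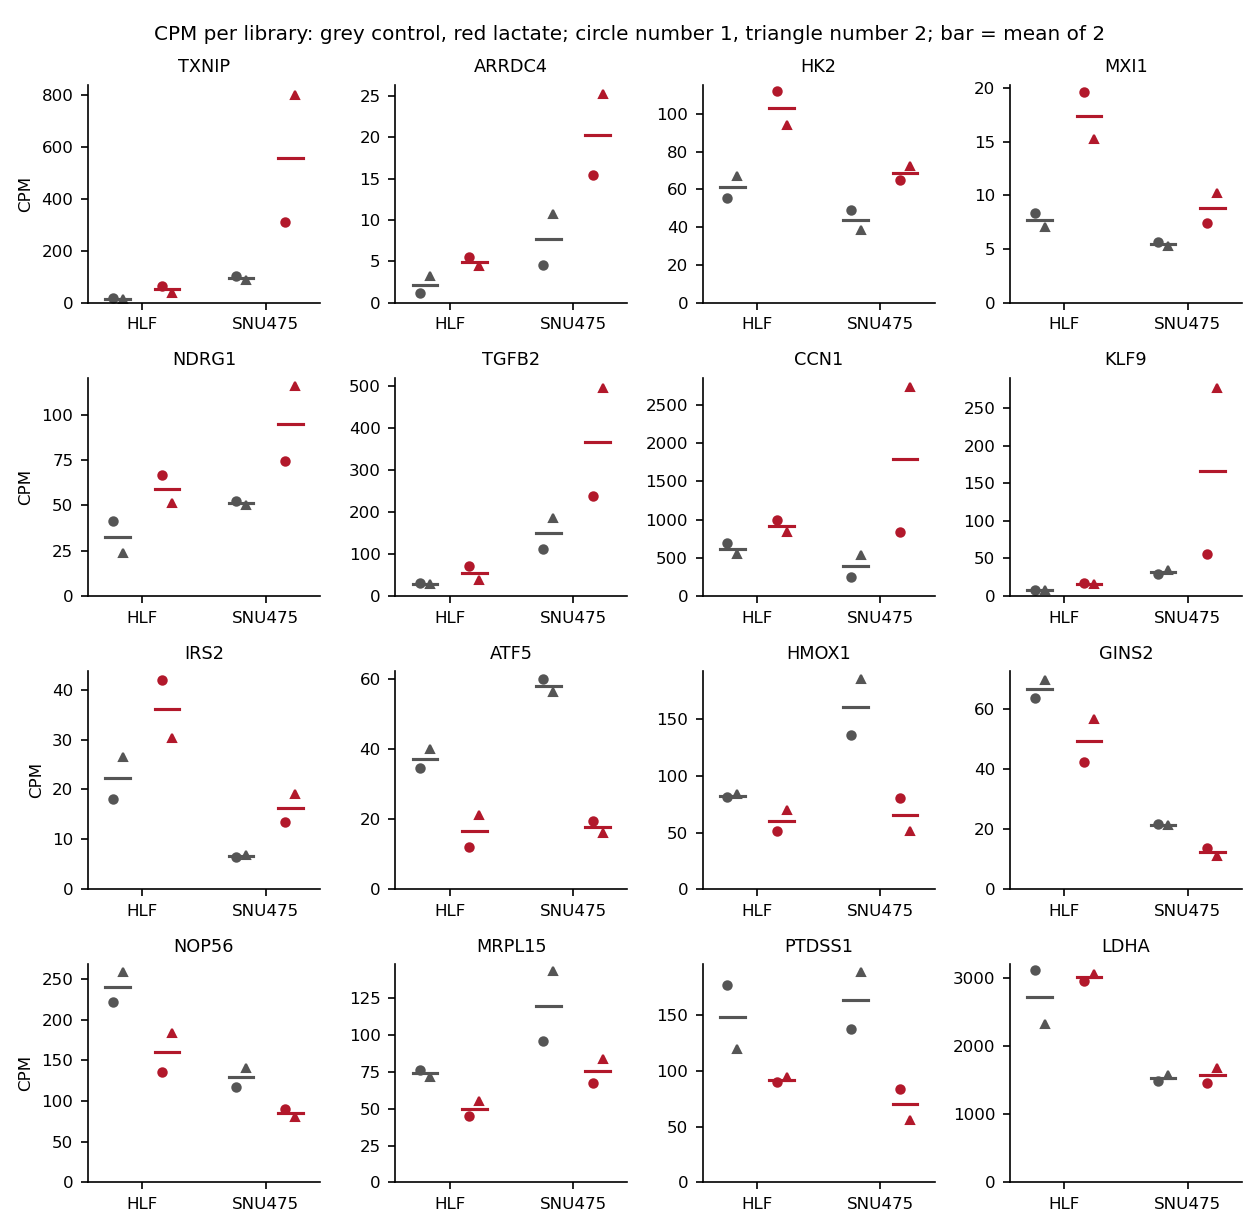
CPM of 16 genes in the 8 libraries on a linear axis from 0, 1 panel per gene, with controls in grey, lactate in red, circles for replicate number 1, triangles for number 2 and a bar at the mean of 2. TXNIP and HK2 sit higher and ATF5 lower in the lactate libraries of both lines, while LDHA overlaps.

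Hypoxia targets were mostly higher. Of 24 tested, 22 were higher and 2 lower, 7 were separated upward and 0 downward, and the median was 0.53, and 0.47 to 0.63 with 1 library left out, against 0.030 over all genes. By line it was 0.58 for HLF, 0.49 for SNU475 and 0.64 for PLC/PRF/5. MXI1, a MYC antagonist of the MAX network, was at 8.32 and 7.06 against 19.6 and 15.2 CPM in HLF and at 5.67 and 5.28 against 7.45 and 10.2 CPM in SNU475 (0.94 ± 0.23). NDRG1, a stress-induced differentiation gene, was at 41.5 and 23.5 against 66.6 and 51.1 CPM in HLF and at 52.7 and 50.1 against 74.5 and 116 CPM in SNU475 (0.87 ± 0.21). BNIP3L, a mitophagy receptor, was at 93.4 and 86.0 against 148 and 133 CPM in HLF and at 90.8 and 68.1 against 110 and 105 CPM in SNU475 (0.54 ± 0.15). All 3 had an edgeR adjusted p of 0.345. DDIT4, an inhibitor of mTORC1, was at 83 and 45.4 against 137 and 106 CPM in HLF and at 39.3 and 11.5 against 44.3 and 168 CPM in SNU475. Its log2 change of 1.49 ± 0.48 dropped to 0.87 without the SNU475 lactate library numbered 2 and to 0.66 without both SNU475 libraries numbered 2. Oxygen was not varied in the design, and the list overlaps with glycolysis and collagen processing.

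Collagen chains and the enzymes that process them were mostly higher, 21 of 23, with 4 separated upward and a median of 0.46. Without the SNU475 lactate library numbered 1 the median was 0.27, with 15 of 23 higher. PLOD2, a collagen lysyl hydroxylase, was at 241 and 210 against 397 and 292 CPM in HLF and at 249 and 297 against 419 and 321 CPM in SNU475 (0.52 ± 0.16). P4HA1, a prolyl 4-hydroxylase subunit that is also on the hypoxia list, was at 126 and 79.7 against 196 and 138 CPM in HLF and at 124 and 93.1 against 197 and 126 CPM in SNU475 (0.64 ± 0.21). COL4A1, a basement membrane collagen, was at 313 and 432 against 554 and 499 CPM in HLF and at 404 and 441 against 694 and 443 CPM in SNU475, where the second lactate library lay just above the controls (0.46 ± 0.18). P4HA2 was at 0.49 ± 0.19. The edgeR adjusted p of these 4 genes was 0.368 to 0.418.

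Targets of TGF-beta and of YAP, the growth-control coactivator of the Hippo pathway, were higher in 16 of 18 cases, with 6 separated upward and a median of 0.41. In PLC/PRF/5 the median of the same list was -0.42, and the median difference between the 2 lines and PLC/PRF/5 was 0.87. That difference was not tested as a list. Summed TPM of the list in PLC/PRF/5 was 994 and 649 in the controls and 917 and 541 with lactate, so those groups overlapped. TGFB2, the ligand, was at 30.5 and 28.4 against 70.7 and 37.4 CPM in HLF and at 112 and 186 against 238 and 497 CPM in SNU475 (1.09 ± 0.28). AMOTL2, a YAP target that restrains YAP, was at 58.5 and 97.1 against 110 and 110 CPM in HLF and at 109 and 116 against 197 and 269 CPM in SNU475 (0.78 ± 0.20). LATS2, the kinase that inactivates YAP, was at 24.3 and 35.6 against 40.2 and 39.9 CPM in HLF and at 48.0 and 33.5 against 73.4 and 101 CPM in SNU475 (0.76 ± 0.22, or 0.47 without both SNU475 libraries numbered 2). The edgeR adjusted p was 0.345 for each. CCN1, a matricellular protein and classical YAP target, was at 689 and 546 against 993 and 836 CPM in HLF and at 246 and 531 against 841 and 2733 CPM in SNU475. Its log2 change was 1.38 ± 0.45, or 0.78 without the SNU475 lactate library numbered 2.

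Immediate early genes were higher in 14 of 17 cases by the shared change. In both lines 11 were higher and 0 lower, and 6 did not share a sign. There were 2 separated upward, DUSP1 and FOSL2, beside 6.56% of all genes. The median of 0.39 was 0.064 in HLF and 0.79 in SNU475. It was 0.10 without the SNU475 lactate library numbered 2. DUSP1, a MAP kinase phosphatase, was at 68.3 and 85.4 against 105 and 114 CPM in HLF and at 19.8 and 20.7 against 29.3 and 145 CPM in SNU475 (1.30 ± 0.46, or 0.51 without that library). EGR1, a zinc finger factor induced by growth signals, was at 5.45 and 2.24 against 11 and 8.03 CPM in HLF and at 4.82 and 2.91 against 11.7 and 4.76 CPM in SNU475, where the groups overlapped (1.20 ± 0.38). KLF2, a zinc finger factor of the same list, was at 1.05 ± 0.36, or 0.50 without that library.

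Genes induced by FOXO factors or tied to quiescence were higher in 23 of 25 cases by the shared change. In both lines 16 were higher and 1 lower, and 8 did not share a sign. There were 8 separated upward and 1 downward, CDKN2C, and the median was 0.46, or 0.28 without the SNU475 lactate library numbered 2. FOXO factors are held out of the nucleus by insulin signalling, and their targets include brakes of the cell cycle. IRS2, an insulin receptor substrate, was at 18 and 26.5 against 42.0 and 30.3 CPM in HLF and at 6.42 and 6.76 against 13.4 and 19.1 CPM in SNU475 (0.99 ± 0.23, edgeR adjusted p = 0.345). KLF9, a zinc finger factor also induced by glucocorticoids, was at 7.95 and 7.89 against 17.2 and 15.6 CPM in HLF and at 28.9 and 33.9 against 56.2 and 277 CPM in SNU475 (1.75 ± 0.45, or 0.96 without that library). CDKN1C, the cyclin-dependent kinase inhibitor p57, was at 0.0924 and 0.243 against 1.12 and 0.439 CPM in HLF and at 8.46 and 6.76 against 14.4 and 20.1 CPM in SNU475. BCL6, a transcriptional repressor, was at 0.69 ± 0.22, or 0.42 without both SNU475 libraries numbered 2.

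DNA replication genes were lower in 24 of 24 cases. There were 8 separated downward and 0 upward, with a median of -0.32 (HLF -0.22, SNU475 -0.43, PLC/PRF/5 -0.27). GINS2, a subunit of the replicative helicase, was at 63.8 and 69.9 against 42.3 and 56.8 CPM in HLF and at 21.6 and 21.5 against 13.9 and 11 CPM in SNU475 (-0.61 ± 0.17). MCM5, of the same helicase, was at 220 and 215 against 147 and 192 CPM in HLF and at 115 and 149 against 93.7 and 74.0 CPM in SNU475 (-0.51 ± 0.16). PCNA, the polymerase clamp, was at 260 and 249 against 178 and 221 CPM in HLF and at 253 and 313 against 190 and 199 CPM in SNU475 (-0.45 ± 0.14). CDC6, which loads the helicase, was at -0.63 ± 0.21, or -0.38 without both SNU475 libraries numbered 2. The 4 genes had edgeR adjusted p-values of 0.345 to 0.384. Mitosis genes did not share the direction: 16 of 21 were higher and 5 lower by the shared change. In both lines 9 were higher and 2 lower, while 10 did not share a sign, and the median was 0.077. That median was -0.19 without the SNU475 lactate library numbered 2, 0.26 without that numbered 1 and -0.082 without both SNU475 libraries numbered 2. BIRC5, the survivin gene, was the one separated member, downward at -0.42 ± 0.15, while TOP2A was at 0.32 ± 0.21, or 0.13 without the SNU475 lactate library numbered 2.

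Genes that build ribosomes and modify RNA were lower as well. Of 22 ribosome biogenesis genes, 19 were lower and 5 were separated downward, 0 upward, with a median of -0.30. NOP56, a core protein of the small nucleolar particles that methylate ribosomal RNA, was at 221 and 259 against 136 and 184 CPM in HLF and at 117 and 141 against 90.3 and 80.3 CPM in SNU475 (-0.59 ± 0.15). UTP4, of the small-subunit processome, was at 158 and 149 against 95.3 and 124 CPM in HLF and at 81.0 and 103 against 59.4 and 48.9 CPM in SNU475 (-0.62 ± 0.16). The edgeR adjusted p was 0.345 for both, and NOP58 (-0.60 ± 0.18) and RRP12 (-0.54 ± 0.16) differed by similar amounts.

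Of 20 genes for tRNA and rRNA modification, 18 were lower and 5 were separated downward, 0 upward, with a median of -0.28 (-0.17 without the SNU475 control numbered 2). TRMT61A, the catalytic subunit of a tRNA adenosine methyltransferase, was at 28.5 and 35.6 against 13.5 and 24.1 CPM in HLF and at 32.4 and 43.3 against 16.2 and 8.15 CPM in SNU475 (-1.20 ± 0.30). Its partner subunit TRMT6 was at -0.45 ± 0.16. METTL1, a tRNA guanosine methyltransferase, was at 19.4 and 23.6 against 11.9 and 14.4 CPM in HLF and at 17.7 and 19.8 against 11.9 and 7.31 CPM in SNU475 (-0.83 ± 0.21). Both METTL1 and TRMT61A had an edgeR adjusted p of 0.345. EMG1, which methylates ribosomal RNA, was at -0.44 ± 0.15.

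Nuclear genes of mitochondrial translation were lower in 21 of 22 cases, with 8 separated downward, 0 upward and a median of -0.19. MRPL15, a large-subunit protein of the mitochondrial ribosome, was at 76.3 and 71.8 against 44.7 and 55.0 CPM in HLF and at 96.2 and 143 against 67.2 and 83.6 CPM in SNU475 (-0.62 ± 0.17). MRPL1 was at -0.62 ± 0.21. The 25 nuclear genes of the respiratory chain had a median of -0.030, which ran from -0.10 without the SNU475 lactate library numbered 2 to 0.041 without the HLF control numbered 1. The 13 mitochondrially encoded mRNAs were lower in 11 cases with a median of -0.51, but 0 were separated in both lines. MT-CO3, a cytochrome oxidase subunit, was at 11243 and 3197 against 3380 and 2989 CPM in HLF and at 8965 and 19176 against 7269 and 10555 CPM in SNU475, so its groups overlapped in both lines. Without the HLF control numbered 1, which had the highest mitochondrial share in its line, the median of the 13 was -0.11. The part of the mitochondrial share in the other results was not tested beyond a fit without these genes, which also called 0.

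**Figure D4:**
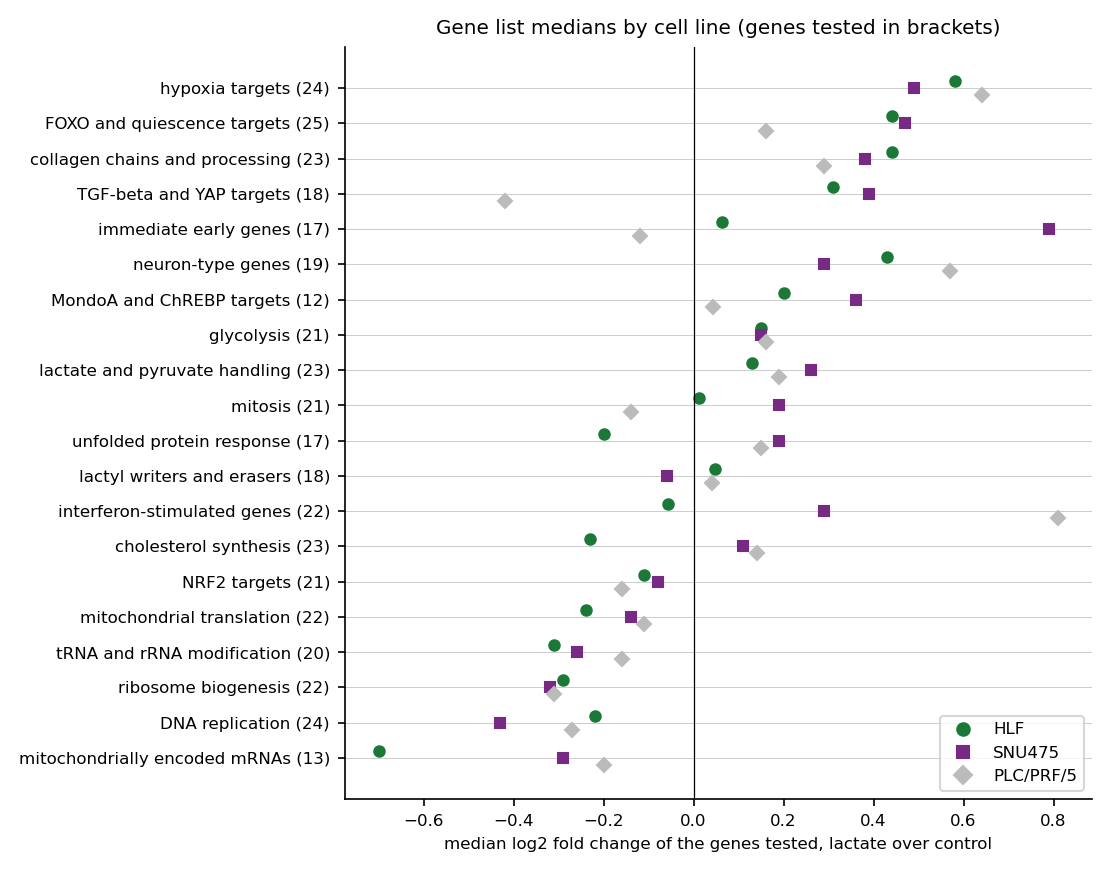
Median log2 fold change with lactate of the members of each gene list, by line. Hypoxia, FOXO and collagen lists lie above 0 in all 3 lines, replication and ribosome lists below 0 in all 3, and the TGF-beta and YAP list is at -0.42 in PLC/PRF/5.

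NRF2 targets, the genes of the antioxidant response, were lower in 15 of 21 cases, with 4 separated downward, 0 upward and a median of -0.16. That median was -0.058 without the HLF control numbered 1 and -0.063 without the SNU475 control numbered 1. HMOX1, which degrades haem, was at 81.2 and 84.2 against 51.4 and 69.5 CPM in HLF and at 136 and 186 against 80.6 and 51.3 CPM in SNU475 (-0.87 ± 0.23, or -0.57 without both SNU475 libraries numbered 2). OSGIN1, an oxidative stress gene, was at 32.5 and 23.2 against 19.4 and 17.0 CPM in HLF and at 162 and 154 against 101 and 54.5 CPM in SNU475 (-0.82 ± 0.21). The edgeR adjusted p was 0.345 for both. SQSTM1, the autophagy receptor p62, was at 947 and 804 against 596 and 691 CPM in HLF and at 1898 and 1195 against 1186 and 549 CPM in SNU475 (-0.64 ± 0.25). Of 25 autophagy and lysosome genes, 4 were separated downward (SQSTM1, TFE3, MCOLN1 and CLN6) and 1, GABARAPL1, upward, with a median of -0.029. It ran from -0.10 without the SNU475 control numbered 2 to 0.10 without the HLF control numbered 1.

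The integrated stress response list, to which ATF5 belongs, was mixed. Of 24 genes, 15 were higher and 9 lower, 3 were separated downward (ATF5, SHMT2 and SLC3A2) and 1 upward, VLDLR, with a median of 0.095 that had opposite signs in HLF (-0.13) and SNU475 (0.35). Without the SNU475 lactate library numbered 2 the median was -0.13, with 10 higher and 14 lower, and without both SNU475 libraries numbered 2 it was -0.17. SLC3A2, the heavy chain of several amino acid transporters, was at 348 and 239 against 193 and 176 CPM in HLF and at 368 and 352 against 245 and 290 CPM in SNU475 (-0.55 ± 0.16). HARS1 and FARSA, which charge tRNAs with histidine and phenylalanine, were separated downward (-0.42 ± 0.13 and -0.49 ± 0.17), among 20 synthetase genes with a median of -0.012 (-0.036 to -0.0016 with 1 library left out). The unfolded protein response had 0 separated members of 17 and a median of 0.019, which was -0.17 without the SNU475 lactate library numbered 2 and 0.17 without the HLF control numbered 1.

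Among 15 genes of pH regulation and acid sensing, 3 were separated upward and 2 downward, with a median of 0.32 (0.077 without the SNU475 lactate library numbered 1). SLC4A7, a sodium bicarbonate cotransporter that brings base into the cell, was at 47.8 and 94.4 against 137 and 103 CPM in HLF and at 24.9 and 22.0 against 42.9 and 46.1 CPM in SNU475 (0.84 ± 0.21, edgeR adjusted p = 0.345). SLC4A2, which exchanges chloride for bicarbonate and so removes base, was at 419 and 380 against 240 and 319 CPM in HLF and at 503 and 364 against 317 and 88.6 CPM in SNU475 (-0.81 ± 0.33, or -0.50 without the SNU475 lactate library numbered 2). ASIC1, an acid-sensing ion channel, was at 0.71 ± 0.27. GPR4, a proton-sensing receptor, was at 1.51 ± 0.63, or 0.60 without the SNU475 lactate library numbered 2, which alone reached 20.2 CPM.

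Phospholipid genes were mixed, with 3 of 19 separated upward and 4 downward. Besides PTDSS1, the choline kinase gene CHKA was lower, at 28.4 and 24.2 against 14.3 and 16.4 CPM in HLF and at 70.3 and 67.5 against 59.2 and 26.8 CPM in SNU475 (-0.73 ± 0.23). The phospholipid transfer protein gene PLTP was at 1.11 and 1.12 against 3.45 and 2.15 CPM in HLF and at 3.37 and 5.44 against 8.61 and 6.98 CPM in SNU475 (1.06 ± 0.32). LPIN2, a phosphatidate phosphatase, was at 0.56 ± 0.17. In fatty acid oxidation, 4 of 23 genes were separated upward and 0 downward, among them PPARA (0.82 ± 0.26), the receptor that drives the pathway. The median there was 0.054 (0.14 without the HLF control numbered 1). The 23 cholesterol synthesis genes had a median of -0.092, which was -0.19 without the SNU475 lactate library numbered 2 and 0.029 without the HLF control numbered 1.

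Genes best known from neurons were separated upward in 6 of 19 cases and downward in 0, with a median of 0.33 (0.50 without the HLF control numbered 1 or the SNU475 control numbered 2). The 6 are LMTK3, SRRM3, CPT1C, MAP2 and the isoenzyme genes ENO2 and ALDOC counted above. MAP2, a microtubule protein of dendrites, was at 8.04 and 9.06 against 22.8 and 14.5 CPM in HLF and at 30.8 and 19.8 against 34.7 and 33.7 CPM in SNU475 (0.77 ± 0.24). CPT1C was at 5.18 and 2.48 against 7.76 and 5.53 CPM in HLF and at 0.749 and 0.715 against 2.62 and 1.89 CPM in SNU475 (1.16 ± 0.37). Like all lists it was chosen with earlier results of these libraries known, so its direction is no independent evidence.

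Of 16 mesenchymal markers, 2 were separated upward (TWIST1 and CDH2) and 1 downward (SNAI2), beside 6.56% and 6.10% of all genes. Their median was 0.17, and it was 0.061 without the SNU475 lactate library numbered 2 and 0.26 without the HLF control numbered 1. TWIST1, a mesenchymal transcription factor, was at 15.5 and 14.7 against 20.1 and 18.2 CPM in HLF and at 40.4 and 39.4 against 50.8 and 57.9 CPM in SNU475 (0.39 ± 0.15). SNAI2, another such factor, was at most 0.292 CPM in HLF, and in SNU475 it was at 28.7 and 86.9 against 17.6 and 24.3 CPM. Of 13 epithelial markers, 11 were higher, but only 5 were so in both lines, 8 did not share a sign and 0 were separated. Their median of 0.37 ran from 0.15 without the SNU475 lactate library numbered 1 to 0.80 without the SNU475 control numbered 1. The E-cadherin gene CDH1 was at 0.323 and 0.243 against 1.81 and 1.27 CPM in HLF and at 6.48 and 0.825 against 14.1 and 2.15 CPM in SNU475, where the libraries split by number in both conditions. Markers of other liver cell types had 0 of 10 separated in either direction.

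Of 20 inflammatory genes, 2 were separated downward, the neutrophil chemokines CXCL1 and CXCL2, and 0 upward, beside 6.10% and 6.56% of all genes. The median was 0.023, but -0.23, with 7 higher and 13 lower, without the SNU475 lactate library numbered 2, 0.12 without the HLF control numbered 1 and -0.076 with limma-voom. CXCL1 was at 91.7 and 53.8 against 40.3 and 53.3 CPM in HLF and at 3.96 and 11.1 against 2.68 and 0.391 CPM in SNU475 (-1.32 ± 0.51). Without both SNU475 libraries numbered 2 its log2 difference was -0.64, and without the SNU475 control numbered 2 it was -0.87. Interferon-stimulated genes had 0 of 22 separated and a median of 0.019 (-0.13 without the SNU475 lactate library numbered 1, 0.27 without the SNU475 control numbered 1), against 0.81 in PLC/PRF/5. The difference between those medians was not tested as a list.

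No gene passed the test of the difference between the lines (edgeR, called share 0%, smallest adjusted p = 1.0), and 357 genes (2.08%) had an unadjusted p under 0.05. DESeq2 called 1. IL4R, the interleukin 4 receptor, was at 109 and 86.5 against 69.4 and 69.2 CPM in HLF and at 15.6 and 18 against 26.6 and 34.6 CPM in SNU475, so the lines differed from control in opposite directions. CDCP1, a transmembrane substrate of SRC kinases, was at 3.05 and 2.73 against 2.33 and 3.64 CPM in HLF and at 9.53 and 11.1 against 34.7 and 33.2 CPM in SNU475. The difference of the log2 changes was 1.36 ± 0.34 for IL4R and 1.67 ± 0.45 for CDCP1 (SNU475 minus HLF). PCLO, a presynaptic scaffold protein, was at 3.97 and 5.70 against 9.57 and 9.60 CPM in HLF and at 18.8 and 18.1 against 13.2 and 11.6 CPM in SNU475, a difference of -1.56 ± 0.43.

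PLC/PRF/5 has its own control libraries, so it shares none with the 2 lines. Of the 1124 separated higher genes that were also tested with it, 70.9% had a positive change there, against 51.4% of all genes, and 46.8% were separated upward, against 27.7%. Of the 1048 separated lower genes, 76.7% had a negative change, against 44.9% of all genes, and 54.8% were separated downward, against 22.7%. No gene passed the test of the difference between the 2 lines and PLC/PRF/5 (edgeR, called share 0%, smallest adjusted p = 0.861). At an unadjusted p under 0.05 there were 743 (4.05%), and DESeq2 called 6. TXNIP was at 0.451 and 0.299 CPM in the PLC/PRF/5 controls and 0.852 and 1.62 CPM with lactate, far below its level in the other lines but in the same direction. KREMEN1 was at 26.8 and 23.2 against 36.1 and 35.2 CPM there. IRS2 went the other way, at 41.5 and 32.7 against 24.7 and 27.3 CPM, as did LATS2, at 65.5 and 54.5 against 46.3 and 35.6 CPM. A fit with replicate number as a block called 8 genes for this difference. Among them was SEMA4G from the first 15 higher genes (difference 1.92, edgeR adjusted p = 0.0494 in that fit). CCN1 was called too, at 143 and 61.7 against 72.8 and 31.8 CPM in PLC/PRF/5.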

How the data were processed

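RNA of 12 libraries was sequenced, 8 of which (HLF and SNU475, control and lactate, 2 each) enter the main fit. The authors deposited 1 gene table per library with RSEM's expected counts (estimated counts that need not be whole), TPM and an effective length, per the file headers. TPM was used only for marker levels and the effective length only as an alternative offset. Per the labels' protocols, TRIzol was used for extraction and the library kit keeps strand. FastQC, STAR, RSEM and DESeq2 are named without versions in the submitters' processing notes, with GRCm38 and mm10, which are mouse builds. All 62757 rows carry human identifiers and were treated as human genes. Which human build and annotation served is not given in the sources used here. Whether counting used strand is not given either, so antisense partners may share reads.

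For pseudoautosomal genes, X and Y rows were summed (47 pairs, leaving 62710 genes) and expected counts were rounded. Genes were filtered with filterByExpr by group (17191 of the 62710 kept) and scaled with TMM factors (0.826 to 1.12). In R 4.3.3, edgeR 4.0.16 was run with its robust quasi-likelihood test, with line as a block (5 residual degrees of freedom, biological coefficient of variation 0.29), and with the interaction for line differences (4 degrees of freedom). The comparison with PLC/PRF/5 used a fit of all 12 libraries as 6 groups (18355 genes, 6 degrees of freedom). P-values were adjusted by Benjamini-Hochberg and called at 0.05. The fits were tested on simulated counts with known fold changes, the same spread for every gene and no replicate effect. These data differ in that, so the run does not show what the fits miss here. Alternatives used DESeq2 1.42.0, limma 3.58.1, other filters and scalings, and each library left out.

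The members and the 36 gene lists were chosen with earlier results of these data known. The first 15 genes per direction and the genes of the line difference are protein-coding with a mean of at least 2 CPM. List members and preset genes had no such floor, so some lie below it. The rule takes calls by size of fold, filled up to 15 per direction with the smallest p among separated genes, which here fills both directions, as there were no calls. It adds the 6 smallest p for the line difference, up to 4 members of each list with the smallest p, and 21 preset genes of glycolysis, lactate use and related responses. The genes named as separated list members beyond these, and those described against PLC/PRF/5, were chosen after their values were seen.

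Same-numbered control and lactate libraries deviated together (correlation 0.119 in HLF and 0.473 in SNU475, both above the limit of 0.1). An alternative fit, with replicate number as a block, therefore counted the numbers as pairing them. The main fits hold no such block, so their SEs and p-values do not reflect any pairing. The numbers stand in the sample titles, without a statement of what equal numbers have in common. Replicates correlated at 0.944 to 0.986, libraries of different lines at most at 0.78, and replicate pairs differed by a chi-square of 23.2 or more per degree of freedom, so none was a copy.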

Additional observations from a re-analysis of the deposited data

Results flagged for a closer look

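Genes are listed here because, in CPM, both lactate libraries of HLF and of SNU475 lay on one side of their controls and those of PLC/PRF/5 on the other, or because HLF and SNU475 did so against each other. None of these differences passed an adjusted p of 0.05 in edgeR (smallest adjusted p = 0.861 against PLC/PRF/5 and 1.0 between the lines). The YAP kinase gene LATS2 was higher with lactate in HLF and SNU475 and lower in PLC/PRF/5, a difference in log2 change of 1.30 ± 0.32. FOSL2, an AP-1 subunit, differed the same way by 0.90 ± 0.27, and IRS2 by 1.5 ± 0.33. The drug-metabolising gene CYP3A5 was lower in both lines and higher in PLC/PRF/5, a difference of -1.86 ± 0.62, at no more than 2.86 CPM in the 2 lines. In the deposited TPM its SNU475 lactate library numbered 1 (0.980) lay above both controls (0.700 and 0.740), and its HLF lactate library numbered 1 (0.380) lay between the controls (0.350 and 0.410), so the order rests on the scale. The histone gene H4C8 differed by -2.02 ± 0.74, and it belongs to a multigene family whose near-identical copies may share reads. IL4R was lower in HLF and higher in SNU475, a difference of 1.36 ± 0.34 (SNU475 minus HLF). PCLO was higher in HLF and lower in SNU475, a difference of -1.56 ± 0.43. SLC7A8, a neutral amino acid transporter gene, was at 0 counts in both HLF controls and at 0.647 and 0.482 CPM with lactate, while its log2 change in SNU475 was -0.90.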

How the results depend on the processing

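The count of 0 genes for the shared effect became 194 with DESeq2, 329 with no filter on low counts and 22 without both SNU475 libraries numbered 2, and 0 to 1 when each library was left out (TXNIP, without the SNU475 lactate library numbered 2). The replicate block called 0 genes for the shared effect, and limma-voom, other size factors, a stricter filter, effective-length offsets, removal of mitochondrial genes and the 4-group and 12-library fits also called 0. For the line difference the block of paired numbers called 4 genes, DESeq2 1 and no filter 41, with 0 to 6 on leaving out each library (6 without the SNU475 lactate library numbered 1). For the difference from PLC/PRF/5 the block called 8 genes, DESeq2 6 and no filter 69, with 0 to 10 on leaving out each library (10 without the SNU475 lactate library numbered 1). The block changed no other call. Separated genes, where fewer libraries must line up, numbered 2588 higher and 2651 lower without both SNU475 libraries numbered 2, and 1395 to 2179 higher and 1291 to 1949 lower with 1 library left out. The first 15 higher and 15 lower genes kept their direction in all 11 planned settings and all 8 leave-one-out fits. The rule took them from separated genes of the same counts, so their sign could hardly turn, and this is no independent check. Of the 119 genes given values, 4 changed sign when 1 library was left out. PKM ranged from -0.12 to 0.036 (0.036, 0.0046 and 0.010 where positive), LDHB from -0.46 to 0.072, SLC16A1 from -0.11 to 0.24 and EP300 from -0.18 to 0.25 (-0.069, -0.050 and -0.18 where negative). SLC16A1 was also at -0.087 without both SNU475 libraries numbered 2. The cause was not tested. The medians of 13 of the 36 lists changed sign at least once, among them mitosis, the integrated stress response and the unfolded protein response. Each group had 2 libraries, and the part of sequencing depth in these results was not tested.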
